A study of Mus musculus with 4 samples.

Results

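Conventional type 1 dendritic cells (cDC1s) were examined in mouse melanomas treated with antibodies to PD-1 and to macrophage migration inhibitory factor (MIF). A cell was counted as a cDC1 when its barcode, the tag that marks the RNA of 1 droplet, held at least 1 unique molecular identifier (UMI, 1 counted RNA molecule) of Xcr1 or Clec9a and at least 1 of Wdfy4. It also had to lack Ccr7, Cd3d, Cd3e and Cd3g, with at most 1 UMI of Siglech and at most 2 of C1qa, C1qb and C1qc together. This rule found 97 cDC1 barcodes among 6625 kept barcodes, 45 of 2053 in the long treatment cohort (2.19%) and 52 of 4572 in the short treatment cohort (1.14%). The 11 genes that the rule reads are given as values without a test.

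YUMMER1.7 melanoma cells were injected under the flank skin of male C57BL/6J mice of 7 to 8 weeks. In the long treatment cohort the mice received 4 doses over 2 weeks and tumors were taken at day 21, and in the short treatment cohort they received 2 doses over 1 week with tumors taken at day 14. The arms were isotype IgG1, anti-PD-1 (clone RMP1-14) at 10 mg/kg, 20 mg/kg of an antibody to MIF (clone IIID.9) and both antibodies together. The fifth hashtag, named for PD-1, MIF and DDT, was present in both cohorts, and its treatment is not described in the sources used here. Each arm was stained with 1 hashtag antibody, the arms of a cohort were pooled into 1 library, and CD45- and CD45+ cells had been mixed at 20% and 80% before capture. An arm is therefore 1 sample, the mice within it cannot be told apart, and treatment time and library cannot be told apart.

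The arm of every barcode was read from a hashtag oligonucleotide of 15 bases, and these are shown because every comparison between arms rests on them.
Isotype: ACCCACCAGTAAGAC
anti-PD1: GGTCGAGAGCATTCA
anti-MIF: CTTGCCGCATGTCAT
anti-PD1-MIF: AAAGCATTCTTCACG
anti-PD1-MIF-DDT: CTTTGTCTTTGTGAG
All bases are in capitals because the whole oligonucleotide is the tag. Among the cDC1 barcodes the leading hashtag had a median of 1502 UMIs and the second a median of 181 in the long cohort, against 664.5 and 37 in the short cohort. Without the hashtag condition and the limits on genes and mitochondrial RNA, the gene rule was met by 61 barcodes in the long cohort and 54 in the short cohort. Of these, 12 and 1 failed the hashtag condition and 4 and 1 held over 5000 genes.

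cDC1s are the dendritic cells that take up dead cells and present their antigens on MHC class I to CD8+ T cells. Their development depends on the transcription factors Irf8, Batf3 and Id2 and on the growth factor receptor Flt3. Xcr1 is a chemokine receptor that answers Xcl1 from T and NK cells, Clec9a binds actin exposed on dead cells, and Wdfy4 is needed for the presentation of cell-associated antigens. In tumors they are known for carrying antigen to lymph nodes and for supporting T cells on site.

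The cDC1 barcodes were deep. They held a median of 15612 UMIs and 3547 genes in the long cohort and 10500.5 UMIs and 2682.5 genes in the short cohort, against 8710.5 and 5858.5 UMIs in all other kept barcodes. Their mitochondrial share had a median of 0.571% and 0.712%. In all they gave 667424 UMIs in the long and 558282 UMIs in the short cohort, out of 23702910 and 31799441 gene UMIs in the libraries. The libraries shared 20 barcode sequences, 15 of them kept in both, with 0 of them cDC1 barcodes in both, and the sequence of 1 cDC1 barcode also occurred in the other library.

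Xcr1 (chromosome 9, 123852315 to 123862029, minus strand, GRCm38, protein coding) was seen in 45 of the 97 cDC1 barcodes and in 13 of 6528 others. Clec9a (chromosome 6, 129408862 to 129424763, plus strand) was seen in 91 cDC1 barcodes, and 39 barcodes held both. Wdfy4 (chromosome 14, 32959547 to 33185508, minus strand) was present in all 97 by the rule, with a median of 8 and a maximum of 44 UMIs per barcode, and was seen in 27.7% of the other barcodes. Levels are given as CPM, the gene's UMIs per 1000000 gene UMIs of an arm's summed barcodes. In cDC1 barcodes Xcr1 had a lowest, median and highest value of 75.5, 113 and 325 over the 6 arms with at least 5 members. Clec9a had 105, 216 and 369 CPM and Wdfy4 329, 757 and 1309 CPM in the same arms. The rule fixed these values, so they describe the members and test nothing.

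Members with and without Xcr1 were set side by side, as a description. The 45 with an Xcr1 UMI held Irf8 at 1451 CPM, Batf3 at 202, Naaa at 1244 and Cst3 at 30961 in their pooled RNA. The 52 without one held Irf8 at 531 CPM, Batf3 at 71.3, Naaa at 523 and Cst3 at 16749, so every one of these 4 genes was lower there. The share with an Xcr1 UMI was 62.2% in the long cohort and 32.7% in the short cohort. The median depth was 16296 UMIs in the members with Xcr1 and 9726.5 in those without, and the part of depth in these differences was not tested.

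At the edge of the rule were 18 members with 1 UMI of Wdfy4 and 1 of Xcr1 or Clec9a. Their pooled RNA held Irf8 at 309 CPM, Naaa at 124, Cst3 at 5719 and Lyz2, the lysozyme gene of monocytes and macrophages, at 1620. Across all members these genes stood at 1051, 931, 24782 and 579 CPM. The 18 are part of 34 members with 1 UMI of Xcr1 and Clec9a together. Those 34 held Irf8 at 359 CPM, Naaa at 292, Cst3 at 13763 and Lyz2 at 1167. Just outside were 28 barcodes with Wdfy4 at 0 (Irf8 345 CPM, Cst3 7735, Lyz2 2854), 25 with more C1q (Irf8 165, Cst3 5791, Lyz2 2267) and 14 with more Siglech, the gene of plasmacytoid dendritic cells (Irf8 2404, Cst3 1233, Lyz2 572). Another 1241 barcodes had Wdfy4 but no Xcr1 or Clec9a, with Irf8 at 199 CPM and Lyz2 at 6403. In Irf8 and Cst3 the 18 edge members lay nearer to the barcodes with Wdfy4 at 0 and to those with more C1q than to all members, which was not so of the barcodes with more Siglech in Irf8. Lyz2 was also uneven: 5 of the 97 members held 65.5% of its 710 UMIs, and 39 members held 0.

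**Figure D1:**
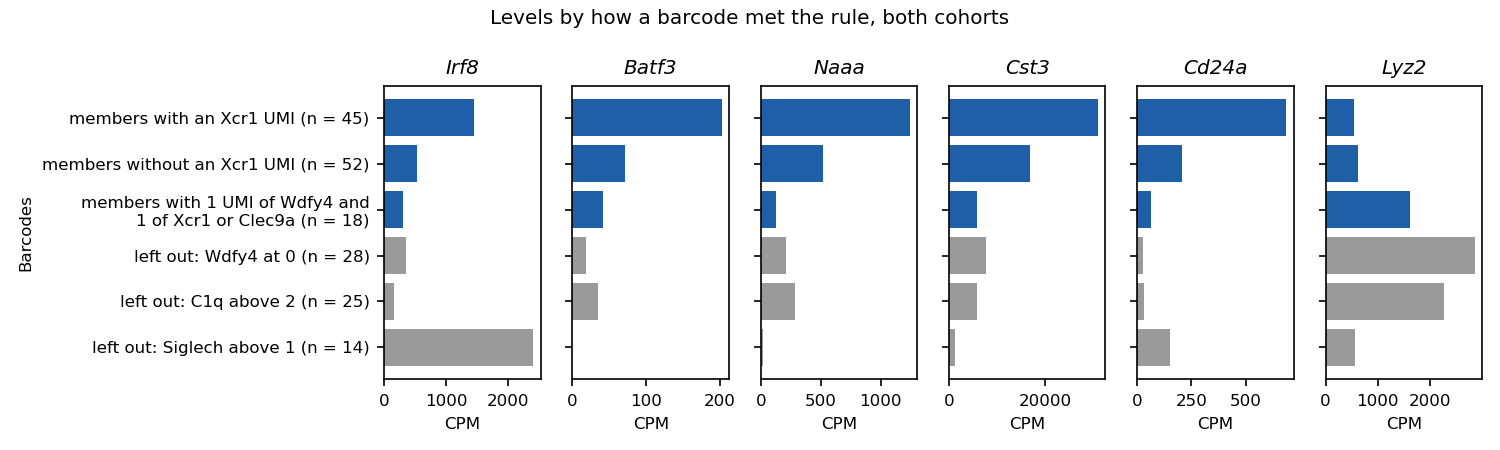
CPM of 6 genes in the pooled UMIs of barcodes of both cohorts, one bar per group of barcodes, with members in blue and barcodes left out by 1 condition in grey. The 18 edge members are also counted in the other blue groups, and their bars for Naaa and Cst3 (124 and 5719 CPM) are far shorter than those of the members with Xcr1 (1244 and 30961 CPM).

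The label was then checked against genes that the rule does not read. UMIs were summed over the cDC1 barcodes and over all other kept barcodes of each arm, and the 6 arms with at least 5 members were compared with edgeR's quasi-likelihood test with the arm as a block. These arms were anti-PD-1, anti-MIF, anti-PD-1/anti-MIF and the fifth hashtag in the long cohort, and anti-PD-1 and the fifth hashtag in the short cohort. Of 8184 genes tested, 650 were higher in cDC1 barcodes (7.94%) and 1101 were lower (13.5%) at an adjusted p under 0.05. Because the barcodes were chosen by their RNA, the test says how evenly a gene differed over the arms and is not separate evidence that the class exists. In such sums, fewer cells with a gene and less of its RNA per cell cannot be told apart.

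Genes of cDC1 identity were higher. Of 21 list genes tested, 20 were higher and 0 lower, with a median log2 fold change of 3.27 beside -0.06 over all genes tested; 3 others (Snx22, Plpp1 and Itga8) were too low to test. Irf8, the factor that commits progenitors to the lineage, stood at 561, 970 and 1792 CPM (lowest, median and highest arm) in cDC1 barcodes and at 221, 310 and 353 CPM in the others, without overlap. Its log2 fold change was 1.76 ± 0.20 (SE, n = 6 arms, edgeR adjusted p = 1.02e-05). Batf3, its partner in cDC1s, stood at 35.0, 124 and 258 CPM against 16.1, 22.7 and 46.5, with the lowest cDC1 arm inside the range of the others. It was 2.40 ± 0.33 log2 units higher (edgeR adjusted p = 5.28e-05), in 5 of 6 arms. Id2, which holds back the plasmacytoid fate, was 1.32 ± 0.18 log2 units higher in 6 of 6 arms.

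Itgae, which encodes CD103, the integrin of tissue cDC1s, stood at 110, 172 and 295 CPM against 0.759, 4.02 and 7.48 CPM, a log2 fold change of 5.55 ± 0.32 (edgeR adjusted p = 6.16e-09). Cd24a was at 350, 495 and 822 CPM against 21.4, 35.8 and 54.6. Naaa, a lysosomal amidase, was at 526, 829 and 1691 CPM against 63.0, 97.1 and 110. Neither gene overlapped between the classes, and their log2 fold changes were 3.86 ± 0.21 and 3.27 ± 0.25. Tlr3, the endosomal sensor of double-stranded RNA, was 4.27 ± 0.34 log2 units higher, the adhesion gene Cadm1 3.53 ± 0.41, and Btla, an inhibitory receptor also found on cDC1s, 4.02 ± 0.28. Cxcl9, a chemokine that draws T cells, was the exception on the list at 0.10 ± 0.33 (edgeR adjusted p = 0.877), with 121, 374 and 806 CPM against 175, 329 and 722.

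Free RNA was gauged in T cell barcodes, those with at least 2 Cd3 UMIs. After thinning every barcode to 2000 UMIs, Naaa was seen in 62.1% of cDC1 and 0.624% of T cell barcodes, Cd24a in 44.2% and 0.156%, and Batf3 in 24.2% and 0.312%. Without thinning, the shares were 85.6% and 1.95% for Naaa, 70.1% and 0.975% for Cd24a, and 57.7% and 0.696% for Batf3, at median depths of 5262 and 4063 UMIs for T cell barcodes in the long and short cohorts. Irf8 was seen in 70.5% of thinned cDC1 and 21.5% of thinned T cell barcodes, and T cells can express it themselves. Of the 97 members, 12 held no Irf8 UMI and 41 no Batf3 UMI.

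**Figure D2:**
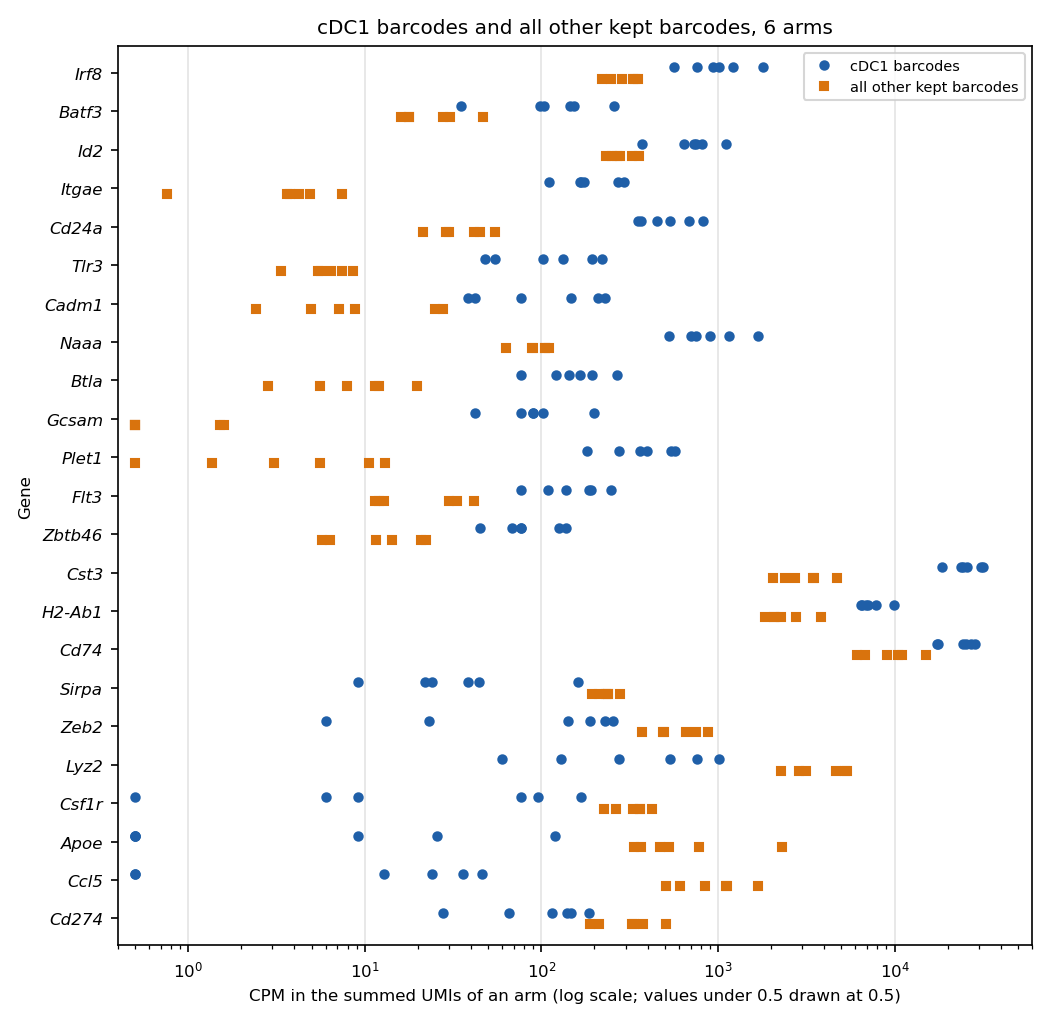
Each blue point is the CPM of a gene in the summed cDC1 barcodes of 1 arm and each orange square the CPM in all other kept barcodes of the same arm, for 6 arms on a log axis with values under 0.5 drawn at 0.5. Irf8, Itgae, Cd24a, Naaa and Cst3 lie apart to the right and Lyz2, Apoe and Ccl5 apart to the left.

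The genes with the largest log2 fold changes that were higher in every arm were Ccser1 (7.68 ± 0.43), Gcsam (7.28 ± 0.54), Sept3 (6.99 ± 0.43), Pianp (6.55 ± 0.53), Gpr141b (6.49 ± 0.47), Plet1 (6.38 ± 0.45), Rtl8c (5.69 ± 0.38), Sult1a1 (5.66 ± 0.61), Mycl (5.60 ± 0.51) and Itgae. Ccser1 (chromosome 6, 61180324 to 62382865, plus strand) had 83 UMIs in the cDC1 sums and 12 in all the others together. Plet1 (chromosome 9, 50494525 to 50505482, plus strand), which marks some tissue dendritic cells, stood at 181, 379 and 575 CPM against 0.355, 4.35 and 13.0. Mycl, a MYC family factor known to favour cDC1 expansion, had a median of 45.2 and a highest value of 92.2 CPM against 0.990 and 2.28. Tlr11 and Tlr12, the paired receptors for the profilin of Toxoplasma, were 5.06 ± 0.43 and 2.66 ± 0.42 log2 units higher. None of these genes overlapped between classes in any arm, as was so for 272 of 8184 genes in this direction (3.32%).

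The 300 bases around the start of these genes (250 before and 50 after, from RefSeq on GRCm38.p6) were searched on both strands for 3 motifs, TGANTCA, the site bound by AP-1 factors such as Batf3, a paired site of interferon regulatory factors (GAAA, any 2 bases, GAAA) and a composite of an ETS site with such a site (GGAA, any 2 bases, GAAA). A match of the paired site can overlap a match of the composite site. Of the 15 leading genes, 13 had a promoter in the table. TGANTCA was found in 5.44% of 662 promoters of genes higher in cDC1 barcodes, 8.47% of 1145 promoters of genes that were lower, 5.23% of 8426 promoters of tested genes and 7.81% of all 32851 promoters. The shares for the paired site were 3.78%, 6.11%, 3.61% and 3.44%, and for the composite site 2.57%, 2.97%, 2.78% and 2.72%. Among the 13 genes, Plet1, Gpr33, Gpr141b and Tlr11 held 1 match each. The 200 bases directly before Plet1 and Tlr11 are shown as examples of the first 2 motifs, with the match in capitals, TGATTCA from 144 and GAAACTGAAA from 122 bases before the start.
Plet1, chr9:50494325-50494524, plus strand: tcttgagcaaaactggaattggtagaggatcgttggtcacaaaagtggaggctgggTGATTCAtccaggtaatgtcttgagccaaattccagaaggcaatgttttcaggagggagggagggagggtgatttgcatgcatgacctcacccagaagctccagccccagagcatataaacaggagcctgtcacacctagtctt
Tlr11, chr14:50357714-50357913, plus strand: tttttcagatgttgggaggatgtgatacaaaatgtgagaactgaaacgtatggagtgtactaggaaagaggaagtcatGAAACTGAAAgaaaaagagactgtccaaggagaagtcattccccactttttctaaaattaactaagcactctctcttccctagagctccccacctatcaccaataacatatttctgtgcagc
A match is a run of letters and was not tested for binding, and the promoters of Xcr1, Clec9a, Wdfy4 and Irf8 held none of these letters in the window.

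Genes shared by conventional dendritic cells were higher as well, 9 of 10 tested, with a median of 2.05. Cst3, cystatin C, an inhibitor of lysosomal proteases, stood at 18479, 25002 and 31716 CPM against 2058, 3108 and 4720, a log2 fold change of 3.07 ± 0.11 (edgeR adjusted p = 5.7e-11). Flt3 was 2.93 ± 0.33 and Zbtb46, the factor that marks conventional dendritic cells, 2.82 ± 0.27 log2 units higher. Itgax, which encodes CD11c, was only 0.86 ± 0.20 higher, and its arms overlapped (106 to 315 against 85.0 to 133 CPM). It did not pass against other barcodes with MHC class II (0.31, edgeR adjusted p = 0.374), with the rule applied to thinned barcodes (0.53, edgeR adjusted p = 0.191), in the 2 short arms alone (0.64), without the fifth hashtag (0.72) or with a hashtag ratio of 5 (0.77). Among 14 transcription factors, Irf8, Batf3, Id2, Zbtb46, Cbfa2t3 and Zfp366 were higher. Zeb2 (-2.33 ± 0.37), a factor of the cDC2 and monocyte fates, and Nfil3 (-1.96 ± 0.31) were lower. Irf4, a factor of cDC2s, also passed (-2.37 ± 0.69, edgeR adjusted p = 0.0201), but its 4 UMIs in the cDC1 sums all lay in the short anti-PD-1 arm (13.7 CPM, inside the range of the others), the other 5 arms being at 0. The call was lost without the long anti-PD-1 arm (-1.82, edgeR adjusted p = 0.102) and without the long combination arm (-2.15, edgeR adjusted p = 0.0516).

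MHC class II genes were higher with their regulator and their peptide editors. H2-Ab1 stood at 6444, 6973 and 9924 CPM in cDC1 barcodes and at 1838, 2192 and 3831 in the others (log2 fold change 1.62 ± 0.10, edgeR adjusted p = 8.15e-09). H2-Aa, H2-Eb1 and Cd74, the invariant chain and also a receptor for MIF, were 1.51 ± 0.10, 1.62 ± 0.10 and 1.31 ± 0.09 log2 units higher. Ciita, the class II transactivator, was 1.96 ± 0.17 higher, H2-DMa and H2-DMb1 1.05 ± 0.14 and 1.18 ± 0.15, and H2-Oa and H2-Ob, which restrain peptide loading, 2.78 ± 0.24 and 3.12 ± 0.27. In contrast the lysosomal proteases on the same list were lower, with Ctsb at -1.98 ± 0.15, Ctsd at -3.47 ± 0.39, Ctsl at -3.26 ± 0.45, Lgmn at -2.28 ± 0.29 and Ctss at -1.28 ± 0.16. Of the 20 genes tested, 11 were higher and 6 lower.

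Peptide supply to MHC class I was split. The transporter genes Tap1 and Tap2 (0.59 ± 0.18 and 0.63 ± 0.20), the immunoproteasome subunits Psmb8 and Psmb9 (0.73 ± 0.13 and 1.11 ± 0.16), the proteasome activator Psme1 (0.71 ± 0.14), the chaperone Pdia3 (0.75 ± 0.16) and Rab43 (1.81 ± 0.26), a vesicle gene linked to cross-presentation, were higher. The class I molecules B2m, H2-K1, H2-D1 and H2-Q7 were lower (B2m -0.66 ± 0.12, H2-K1 -0.61 ± 0.13, H2-D1 -0.43 ± 0.11, H2-Q7 -0.69 ± 0.24), and class I genes are alike enough in sequence to share reads. Cybb of the NADPH oxidase was lower as well (-2.46 ± 0.32). Of 29 genes tested, 7 were higher, 7 lower and 15 did not pass, with a median of -0.01. The calls of Tap1, Tap2, H2-D1 and H2-Q7 were lost when some single arms were left out. Tap1 did not pass without the long anti-PD-1 arm (0.52, edgeR adjusted p = 0.0978) or the long combination arm (0.47, edgeR adjusted p = 0.133), and Tap2 did not pass without either of these or the short arm of the fifth hashtag (0.50 to 0.61, edgeR adjusted p from 0.0837 to 0.136). In the 2 short arms alone Tap1 was at 0.15 and Tap2 at 0.28. Tap1 (0.45, edgeR adjusted p = 0.101), Tap2 (0.50, edgeR adjusted p = 0.108) and H2-Q7 (-0.61, edgeR adjusted p = 0.109) did not pass against other barcodes with MHC class II. Pdia3 (0.52, edgeR adjusted p = 0.164) and H2-K1 (-0.59, edgeR adjusted p = 0.054) did not pass in the 4 long arms alone. H2-D1 did not pass without the short anti-PD-1 arm (-0.41, edgeR adjusted p = 0.0557). H2-Q7 did not pass without that arm (-0.47, edgeR adjusted p = 0.218), nor without the long anti-PD-1 (-0.74), long combination (-0.73) or short PD-1/MIF/DDT arm (-0.58), and was at -0.30 in the 4 long arms alone.

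Of 16 sensing genes, Tlr3, Tlr11 and Tlr12 were higher, and Tlr7 (-2.14 ± 0.48), Tlr13 (-1.77 ± 0.33) and Ddx58 (-1.57 ± 0.38) lower, while Tlr9 had a log2 fold change of -0.16 ± 0.35. Of 13 chemokine genes, 11 were lower and 0 were higher. Cxcl16 was at -0.82 ± 0.26, and Ccl7 had 1 UMI in the cDC1 sums and 4108 in the others. Cxcl16 did not pass without the long anti-PD-1 arm (-0.79, edgeR adjusted p = 0.0919), the long combination arm or the short arm of the fifth hashtag. Ccl5 stood at 0, 18.4 and 46.1 CPM against 509, 979 and 1689. Cxcr3 was higher (1.99 ± 0.44, in 5 of 6 arms) among 7 chemokine receptors, and the other 6 were lower. In the 2 short arms alone Cxcr3 (1.38, edgeR adjusted p = 0.382) and Tlr12 (2.06, edgeR adjusted p = 0.131) did not pass. Ddx58 did not pass with a hashtag ratio of 5 (-1.42, edgeR adjusted p = 0.0544) or in the 4 long arms alone (-1.16, edgeR adjusted p = 0.0723). Of 10 cytokine genes tested 5 were lower, 0 were higher and 5 did not pass. Il12b, which encodes the p40 chain of IL-12, a cytokine for which cDC1s are known, was seen in 2 of 97 cDC1 barcodes (2.06%) and its 21 UMIs in the 6 arms all lay in the long anti-MIF arm (147 CPM), the other 5 arms being at 0. In T cell barcodes it was seen in 0.279%. Over the 6 arms its difference from the others did not pass in the main fit (edgeR adjusted p = 0.16). On the same 6 arms it passed as lower in DESeq2 (-3.83, adjusted p = 0.0294) and with no filter on low counts (-1.40, edgeR adjusted p = 0.0203). Without the long anti-MIF arm cDC1 barcodes held 0 UMIs and the gene passed as lower (edgeR adjusted p = 0.000246). It also passed as lower with at least 2 UMIs of Xcr1 and Clec9a (edgeR adjusted p = 0.000373) and with thinned barcodes (edgeR adjusted p = 0.00169). The same held with a hashtag ratio of 5 (edgeR adjusted p = 0.000314) and in the 2 short arms alone (edgeR adjusted p = 0.0403).

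For the targets of the treatment, cDC1 barcodes held less Mif (275, 402 and 679 CPM against 612, 763 and 778, log2 fold change -0.74 ± 0.17, edgeR adjusted p = 0.00413; -0.57 and 0.101 in the 4 long arms alone) and less of the MIF receptors Cd44 (-1.19 ± 0.18) and Cxcr4 (-2.48 ± 0.31). Cd74 was higher as given above, and Ddt, which encodes a relative of MIF, was at 21.9, 46.4 and 119 CPM against 50.5, 65.9 and 89.1 (-0.17 ± 0.27, edgeR adjusted p = 0.716). Cd274, the gene of PD-L1, stood at 27.6, 127 and 185 CPM in cDC1 barcodes, below every arm of the others (187, 332 and 506), with a log2 fold change of -1.48 ± 0.31. Cd80, Vsir and Lgals9 were lower too, but Cd80 did not pass without the long anti-PD-1 arm (-0.64, edgeR adjusted p = 0.117), the long combination arm or either arm of the fifth hashtag, and Lgals9 did not pass in the long arms alone (-0.67, edgeR adjusted p = 0.109), without the fifth hashtag (-0.58, edgeR adjusted p = 0.0968) or with a hashtag ratio of 5 (-0.68, edgeR adjusted p = 0.115). Btla was the gene that was higher among 12 of the PD-1 and B7 families. Pdcd1lg2, Cd86 and Cd40 did not pass (0.21 ± 0.38, -0.35 ± 0.22 and -0.22 ± 0.24). Cd86 passed as lower with at least 2 UMIs of Xcr1 and Clec9a (-0.94, edgeR adjusted p = 0.00179), with the rule applied to thinned barcodes (-0.94, edgeR adjusted p = 0.00202) and in the 2 short arms alone (-1.10, edgeR adjusted p = 6.6e-07). Interferon genes did not set the class apart upwards: of 17 type I genes 7 were lower and 0 higher, and of 14 interferon-gamma genes 7 were lower and Ciita was higher.

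**Figure D3:**
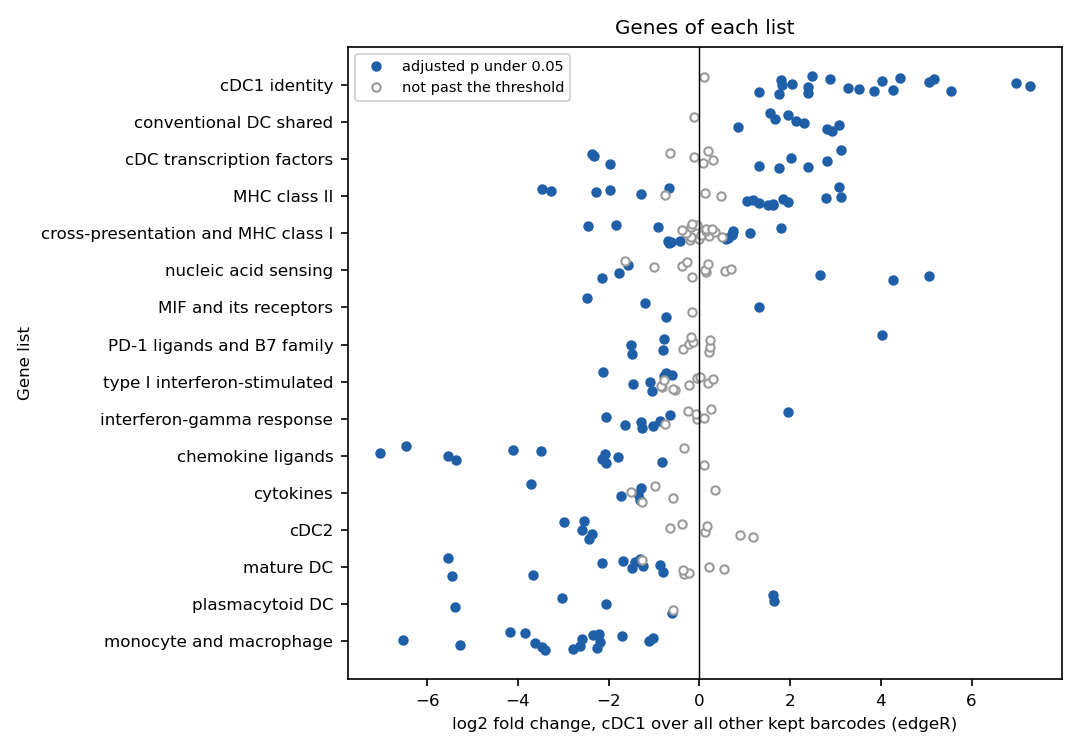
Log2 fold change of each tested gene of 16 lists, cDC1 over all other kept barcodes in 6 arms, with filled points for genes past the threshold; genes at 0 in one class are not drawn. All points of the cDC1 identity list but that of Cxcl9 (0.10) are filled and lie to the right, and all 18 monocyte and macrophage genes tested are lower.

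Genes of most other cell types were low, while those of B cells and some of plasmacytoid dendritic cells were not. The sums of list genes leave out C1q, Cd3 and Siglech, which the rule reads. All 18 monocyte and macrophage genes tested were lower. The 19 genes of the list that the rule does not read summed to 3146 CPM in cDC1 barcodes and 14653 CPM in the others, Plac8 being its most abundant gene in cDC1 barcodes at 1118 CPM, and Mrc1 being at 0. By arm the sum ran from 1631 CPM (long anti-PD-1) to 7054 CPM (short isotype, 3 members). Lyz2 stood at 60.2, 406 and 1016 CPM against 2261, 3905 and 5368, with no overlap, as was so for 550 of 8184 genes in this direction (6.72%). Of 11 cDC2 genes 5 were lower and 0 were higher. Among the lower was Sirpa (9.22, 31.2 and 161 CPM against 194, 236 and 277), its highest cDC1 value being that of the long anti-MIF arm. The 14 genes of that list summed to 362 CPM in cDC1 barcodes, led by Klf4, with Clec4a4 at 0, and to 992 CPM in the others. By arm the cDC1 sum ran from 79.6 CPM (long isotype) to 645 CPM (long anti-MIF), with 628 CPM in short anti-PD-1. Some members also held Cd209a, up to 25 UMIs in a member of the short anti-PD-1 arm. T cell genes other than Cd3 summed to 32.6 CPM over 9 genes against 389 CPM, with Cd8a (22.0 CPM), a gene that some cDC1s also carry, the most abundant and Cd8b1, Cd4, Trbc1, Trbc2, Lck and Cd28 at 0. By arm this sum ran from 0 to 79.6 CPM.

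Of the 11 plasmacytoid genes besides Siglech, summing to 796 CPM against 1126 with Bst2 in the lead and Ly6d and Klk1 at 0, Rnase6 (1.63 ± 0.21) and Pacsin1 (1.64 ± 0.36) were higher and 5 were lower, one of which, Bst2, did not pass without the long anti-PD-1 arm (-0.52, edgeR adjusted p = 0.0638). Pacsin1 did not pass with a hashtag ratio of 5 (1.22, edgeR adjusted p = 0.137) or in the 2 short arms alone (1.09, edgeR adjusted p = 0.552). B cell genes summed to 70.2 CPM against 88.4, nearly all of it Ighm, the gene of the IgM heavy chain, at 66.9 CPM against 58.1 (log2 fold change 0.10 ± 0.29, not past the threshold), with Iglc2 at 0. The part of B cell RNA in the cDC1 sums was not tested. NK cell genes summed to 8.97 CPM against 825, led by Klre1, with 7 of 9 genes at 0, and neutrophil genes to 4.90 CPM against 821, led by Csf3r, with 5 of 7 at 0. Fibroblast and endothelial genes summed to 31.0 CPM against 68.0, led by Pecam1, and mast cell genes to 0 against 4.60. Melanoma genes summed to 24.5 CPM against 56.6, nearly all Mitf in both, and Mlana, Tyr, Tyrp1, Dct and Sox10 were at 0 in the others too, so their zeros do not set the classes apart. Several genes were at 0 in the cDC1 barcodes of the 6 arms tested (S100a8 had 1 UMI in the short isotype arm, which was not tested). With a floor of 3 UMIs over these 6 arms S100a8 was at least 107-fold lower, S100a9 at least 105-fold, Gzma at least 80.2-fold and Gzmb at least 70.0-fold lower than in the others.

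Cell cycle genes gave no common direction: of 14 tested, Mcm5 and Mcm6 of the replicative helicase were higher (1.43 ± 0.39 and 1.22 ± 0.25), Mki67 and Cenpa were lower (-2.20 ± 0.45 and -1.39 ± 0.33), and 8 of the 97 members held an Mki67 UMI. Mcm5 did not pass without the long combination arm (1.23, edgeR adjusted p = 0.0789) or the short anti-PD-1 arm. Mcm6 did not pass with a hashtag ratio of 5 (0.90, edgeR adjusted p = 0.126). In the 2 short arms alone Mcm6 (0.98, edgeR adjusted p = 0.262), Mki67 (-1.68, edgeR adjusted p = 0.219) and Cenpa (-0.87, edgeR adjusted p = 0.261) did not pass. Mki67 was also lost without the arm block (-2.07, edgeR adjusted p = 0.0702) and with the rule applied to thinned barcodes (-1.74, edgeR adjusted p = 0.0502). Of 13 stress and dissociation genes, Fos, Jun, Junb, Atf3 and Dusp1 were lower (-0.80 ± 0.19, -1.25 ± 0.20, -1.07 ± 0.16, -1.42 ± 0.23 and -1.51 ± 0.33). Of 9 receptors for dead cells tested, the scavenger receptor Cd36 was higher (2.00 ± 0.41) and Axl, Itgav, Itgb5, Lrp1 and Stab1 lower. Cd36 was at 0.50 in the 2 short arms alone (edgeR adjusted p = 0.603), where Fos was at -0.31 and did not pass either. Axl (-1.32 over 6 arms) stood at 196 CPM against 133 in the long anti-MIF arm and at 0 to 18.4 against 47.5 to 103 in the other 5. It was at -2.58 without the long anti-MIF arm and did not pass without any one of the other 5, with edgeR adjusted p from 0.0781 to 0.123.

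The difference from all other barcodes was also set between cohorts. In a fit with an interaction of class and cohort, 0 of 8184 genes passed in edgeR, with 368 at an unadjusted p under 0.05, and no other tool was run on it. With the 4 long arms alone 1012 genes were called and with the 2 short arms alone 1522.

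A second class of dendritic cells was that of mature cells, 176 barcodes with Ccr7 and Fscn1 (the genes of migration to lymph nodes and of actin bundling) and without Cd3, Siglech or C1q above the same limits. In the same 6 arms 1999 genes could be tested, of which 506 were higher in cDC1 barcodes (25.3%) and 534 lower (26.7%). Since Ccr7 and Fscn1 chose the mature class and the absence of Ccr7 the cDC1 class, the direction of the maturation genes is a description. Of 19 mature genes tested, 18 were lower in cDC1 barcodes and 0 higher, Cd86 alone not passing (-0.57 ± 0.44). It passed without the long arm of the fifth hashtag (-0.98, edgeR adjusted p = 0.036), with at least 2 UMIs of Xcr1 and Clec9a (-1.44, edgeR adjusted p = 0.00231) and with thinned barcodes (-1.42, edgeR adjusted p = 0.00532). Relb, an NF-kappaB subunit, stood at 18.1, 26.8 and 54.8 CPM against 587, 776 and 875 (log2 fold change -4.60 ± 0.29, in 6 of 6 arms). Cd83 was at 184, 399 and 685 CPM against 1258, 1432 and 1570, and Cd274 at 27.6, 127 and 185 against 714, 827 and 1094. Ccl5 (-8.19 ± 0.42) and Socs2 (-8.30 ± 0.47) were lower, and Il4i1 and Nudt17, at 0 UMIs in cDC1 barcodes, were at least 200-fold and at least 128-fold lower.

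On the other side Naaa (7.54 ± 0.45), Itgae (7.04 ± 0.46), Ckb (6.43 ± 0.49), Plet1 (6.31 ± 0.50), Rab7b (6.19 ± 0.42), Itgax (5.50 ± 0.55) and Ppt1 (5.32 ± 0.34) were higher in cDC1 barcodes. Naaa had 1022 UMIs in the cDC1 sums and 4 in the mature sums. Class II genes were higher with their machinery, H2-Ab1 at 6444, 6973 and 9924 CPM against 167, 929 and 2714 (3.01 ± 0.47), H2-DMb1 by 4.65 ± 0.31 and Ciita by 2.62 ± 0.58, 9 of 16 genes higher and 3 lower. Class I genes went the other way, with 12 of 23 lower and 4 higher. B2m stood at 1719, 2012 and 3144 CPM against 4208, 5383 and 6030, with no overlap (-1.20 ± 0.17), as was so for 599 of 1999 genes in either direction (30.0%), and H2-K1 and Psme2 were at -1.49 ± 0.19 and -1.98 ± 0.15.

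Several lineage genes did not separate cDC1 from mature barcodes. Irf8 stood at 561, 970 and 1792 CPM in cDC1 and at 558, 1112 and 1595 in mature barcodes (-0.07 ± 0.24, edgeR adjusted p = 0.822), and Zbtb46 (-0.76 ± 0.37), Id2 (-0.52 ± 0.22), Cst3 (0.39 ± 0.19) and Cxcl9 (1.35 ± 0.87) did not pass. Each of these 4 did pass without 1 arm, Zbtb46 without long anti-PD-1 (-1.04, edgeR adjusted p = 0.0499), Id2 without long anti-MIF (-0.62, edgeR adjusted p = 0.0424), Cst3 without short anti-PD-1 (0.58, edgeR adjusted p = 0.0233) and Cxcl9 without the long arm of the fifth hashtag (2.22, edgeR adjusted p = 0.0182). With at least 2 UMIs of Xcr1 and Clec9a, Cst3 (0.64) and Cxcl9 (0.93) passed as well. Batf3 was lower in cDC1 than in mature barcodes in 6 of 6 arms (-0.98 ± 0.33, edgeR adjusted p = 0.0254), as was Flt3 (-1.22 ± 0.28). Batf3 did not pass with at least 2 UMIs of Xcr1 and Clec9a (-0.48, edgeR adjusted p = 0.145) or with thinned barcodes (-0.54, edgeR adjusted p = 0.146). Its call was also lost with a hashtag ratio of 2 (-0.68) or 5 (-0.93), without the short anti-PD-1 arm (-0.88) and in DESeq2 (-0.98, adjusted p = 0.0623). Mif was higher in cDC1 than in mature barcodes (275, 402 and 679 CPM against 63.4, 190 and 272, 1.41 ± 0.27), opposite in sign to its difference from all other barcodes. The fits share the cDC1 sums. Of the mature barcodes, 78 came from the long anti-MIF arm, and without that arm 895 genes were called.

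**Figure D4:**
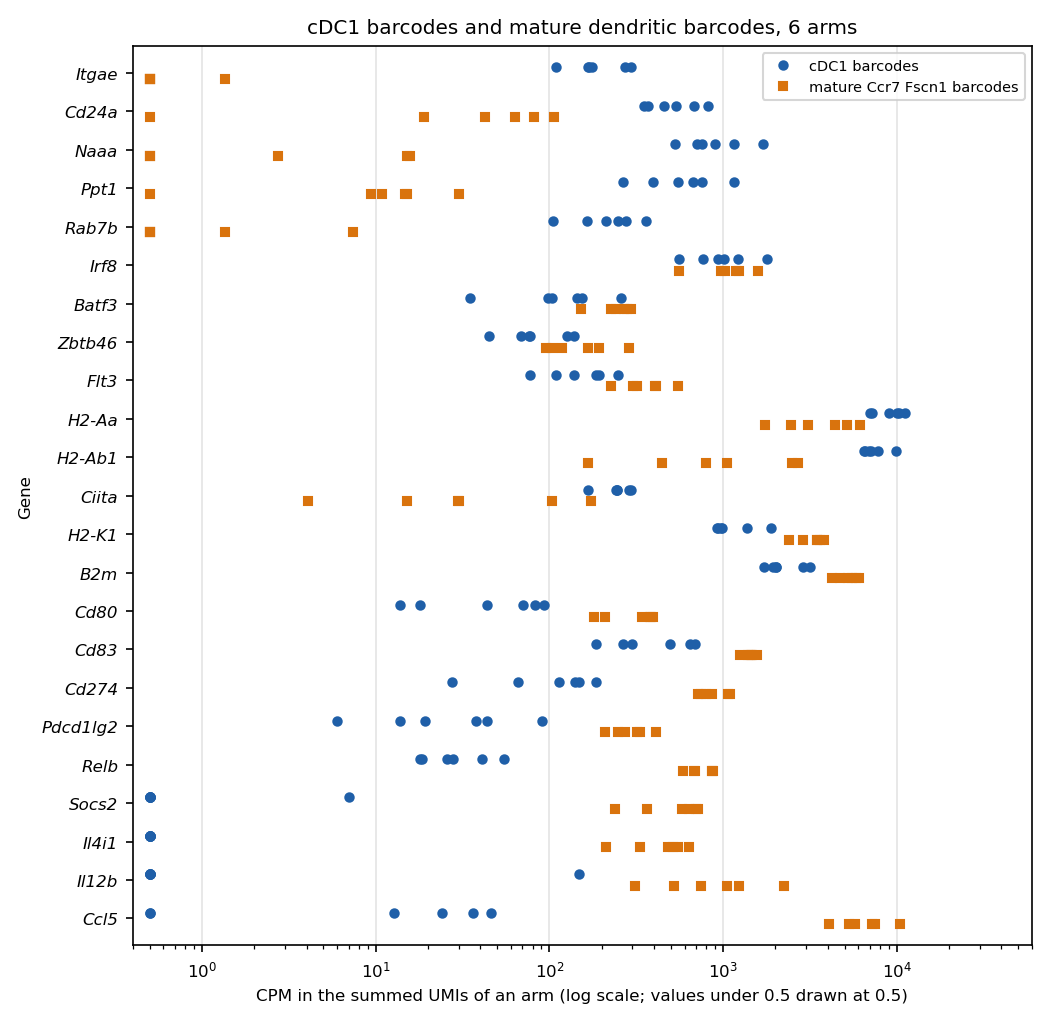
Each blue point is the CPM of a gene in the summed cDC1 barcodes of 1 arm and each orange square its CPM in the mature Ccr7 Fscn1 barcodes of that arm, for 6 arms on a log axis with values under 0.5 drawn at 0.5. Naaa, Rab7b and H2-Ab1 lie apart to the right, Relb, Cd83 and Ccl5 apart to the left, and the points of Irf8 (558 to 1792 CPM) overlap.

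A further class of 90 barcodes held Cd209a, a gene of cDC2s and monocyte-derived dendritic cells, and no Xcr1 or Clec9a. In 4 arms with at least 5 barcodes of each, 2202 genes were tested, and 13 were higher in cDC1 barcodes (0.59%) and 3 lower (0.136%). The higher genes included Ccser1 (4.22 ± 0.67), Cd24a (3.86 ± 0.43), Ppt1 (2.97 ± 0.28), Naaa (2.85 ± 0.42), Irf8 (2.72 ± 0.38), Tbc1d8 (2.66 ± 0.41), Cxcl9 (2.41 ± 0.45, but -0.15 with the rule applied to thinned barcodes), Rab7b (2.33 ± 0.39), Cst3 (2.20 ± 0.26), Id2 (2.12 ± 0.37), Aif1 (1.52 ± 0.24) and Psap (1.08 ± 0.20), and the lower genes Ifit3 (-2.41 ± 0.44), Il2rg (-1.78 ± 0.25) and Nfkbia (-1.77 ± 0.23). Irf8 stood at 1792 CPM in cDC1 and 118 CPM in Cd209a barcodes of the long anti-PD-1 arm, 561 and 63.2 with long anti-MIF, 766 and 269 with short anti-PD-1 and 1216 and 173 with the fifth hashtag of the short cohort, without overlap, as was so for 102 of 2202 genes in this direction (4.63%), for 92 in the other (4.18%) and for 194 in either (8.81%). Class II genes gave 1 call in 16, Cst3. This count rests on few barcodes and moved with nearly every choice, from 0 without the short arm of the fifth hashtag to 502 with at least 2 UMIs of Xcr1 and Clec9a.

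The share of cDC1 barcodes in each arm was compared last, because the study asked whether the antibodies change the cells of the tumor. By flow cytometry of surface proteins in other mice, the paper reported a higher percentage of cDC1s with the combination than with control. Among the long arms, isotype had 4 cDC1 barcodes in 159 (2.52%, exact 95% interval 0.690 to 6.32), anti-PD-1 had 15 in 386 (3.89%, 2.19 to 6.33), anti-MIF had 8 in 895 (0.894%, 0.387 to 1.75), the combination had 12 in 288 (4.17%, 2.17 to 7.17) and the fifth hashtag had 6 in 325 (1.85%, 0.680 to 3.97). In the short cohort it was 3 of 744 (0.403%, 0.0832 to 1.17), 25 of 1714 (1.46%, 0.946 to 2.15), 4 of 567 (0.705%, 0.193 to 1.80), 3 of 476 (0.630%, 0.130 to 1.83) and 17 of 1071 (1.59%, 0.927 to 2.53) in the same order. These Clopper-Pearson intervals cover counting error alone, and most of them overlap. The combination lay above isotype in each cohort with overlapping intervals, and this pair was not tested. The long anti-MIF arm lay below the long anti-PD-1 and combination arms, and it held the most kept barcodes of its cohort (895) and 78 mature barcodes.

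With anti-PD-1 the share was higher in 3 of 4 pairs, by 1.37 (long, over isotype), 3.27 (long, over anti-MIF) and 1.06 percentage points (short, over isotype), while the short combination arm differed from short anti-MIF by -0.0752 points. The mean difference was 1.41 ± 1.39 points (SD over 4 pairs; p = 0.25 in an exact permutation of the signs, two-sided). With anti-MIF the differences were -1.62 points (long, from isotype), 0.281 (long, from anti-PD-1), 0.302 (short, from isotype) and -0.828 (short, from anti-PD-1), a mean of -0.467 ± 0.934 (SD; p = 0.5 in the same exact permutation). These values moved with the choice of barcodes. With at least 2 UMIs of Xcr1 and Clec9a the anti-PD-1 differences were 0.593, 2.90, 0.431 and 0.101 points in the order given, and with a leading hashtag at least 5 times the second 0.610, 1.64, 1.19 and 0.0907, positive in 4 of 4 pairs. With the rule applied to thinned barcodes the long difference from isotype was -0.105 and the other 3 were positive. The mean was 1.01, 0.881 and 0.642 points in these 3 settings. For anti-MIF the long difference from anti-PD-1 turned to -1.62 points with the hashtag ratio of 5 (2.38% against 4.0%) and to -0.369 with thinned barcodes, where all 4 pairs were negative. The mean anti-MIF difference lay between -1.22 points (hashtag ratio of 5) and -0.216 (no upper limit on genes). With at least 2 UMIs the long anti-MIF arm fell from 0.894% to 0.223% and the short anti-PD-1 arm from 1.46% to 0.700%. Since the smallest p is 2 of 16 sign patterns, this test cannot pass 0.05 with 4 pairs. Shares of a sorted and recombined suspension move with every other cell in it.

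**Figure D5:**
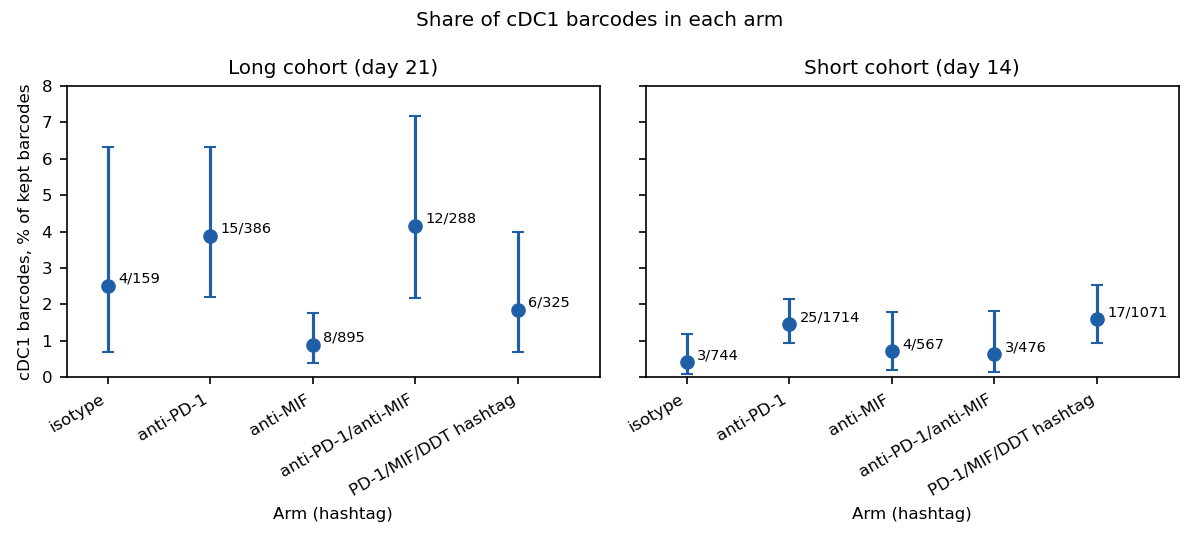
Percentage of kept barcodes that met the cDC1 rule in each of 10 arms, with exact Clopper-Pearson 95% intervals and the counts beside each point. The long arms span 0.894% (anti-MIF) to 4.17% (the combination) and the short arms 0.403% (isotype) to 1.59% (the fifth hashtag), and the order of the arms changes with the hashtag ratio.

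Within cDC1 barcodes, genes were set against treatment in the 8 arms without the fifth hashtag, each of which held 3 to 25 members. In an additive model of cohort and both antibodies, for anti-MIF 0 of 2037 genes passed in edgeR (0.0%), with 67 at an unadjusted p under 0.05, and DESeq2 called 0. For anti-PD-1 0 of 2037 passed (0.0%), with 117 unadjusted, and DESeq2 called 0. Ifit2, an antiviral interferon-stimulated gene, had the smallest p for anti-MIF among the genes of the lists (2.10 ± 0.41 log2 units, edgeR adjusted p = 0.423). Its CPM in long cDC1 barcodes was 79.6 (isotype), 152 (anti-PD-1), 301 (anti-MIF) and 415 (both), and its CPM in short ones 0, 41.2, 145 and 351. Each arm with anti-MIF lay above its partner, but Ifit2 was picked for its p, so this order is not separate evidence. The short isotype and short combination values come from 3 members each. Of 17 type I interferon genes 15 had a positive coefficient for anti-MIF, with a median of 1.00 beside -0.02 over all genes, and 0 passed. In the same fit 2 of 19 cDC1 identity genes (median -0.31) and 1 of 13 stress and dissociation genes (median -0.59) had a positive coefficient, with 0 passing, and 2 of the 8 members of the long anti-MIF arm held at least 2 UMIs of Xcr1 and Clec9a. The part of these differences between the members in the interferon values was not tested. Of 16 class II genes 1 had a positive coefficient for anti-PD-1, with a median of -0.47 beside 0.00 over all genes, and 0 passed. Ctss, a protease of class II processing, stood at 1134, 470, 1948 and 560 CPM in the long and 1293, 766, 1348 and 527 CPM in the short cohort in the same order of arms (-1.32 ± 0.27 for anti-PD-1, edgeR adjusted p = 0.189).

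Between the cohorts, 2 of 2037 genes were higher in the long cohort (0.0982%) and 0 lower. Irf7, a master factor of the interferon response, stood at 856, 613, 617 and 878 CPM in the long and 118, 182, 249 and 105 CPM in the short arms (2.16 ± 0.36 log2 units, edgeR adjusted p = 0.0374). Cdk8, named for a kinase of the Mediator complex, was 1.81 ± 0.17 higher (edgeR adjusted p = 0.00018), with 9216 to 17136 CPM in the long and 2987 to 5729 CPM in the short arms. In the pooled long members H2-Ab1 stood at 7794 CPM, below each of these long Cdk8 values. Whether all UMIs counted as Cdk8 come from its transcript was not tested. On the same 8 arms DESeq2 called 19 genes. With a leading hashtag at least 5 times the second, which left 6 arms, edgeR called 0, although the differences were as large (2.28 for Irf7 and 2.03 for Cdk8, edgeR adjusted p = 0.851 for both). Irf7 also did not pass when any 1 of the long isotype, long combination, short isotype, short anti-PD-1 and short combination arms was left out (2.02 to 2.38, edgeR adjusted p from 0.0663 to 0.255) or with at least 2 UMIs of Xcr1 and Clec9a (1.97, edgeR adjusted p = 0.133). Both were also higher in the long than in the short library in all other kept barcodes, Irf7 at 601 and 291 CPM and Cdk8 at 15571 and 10154 CPM. The share of members with Xcr1, given above, and Lyz2 in members (262 CPM long, 958 CPM short) moved with the cohort as well, and their part in these calls was not tested.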

How the data were processed

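CD45-sorted and recombined cells of YUMMER1.7 tumors were captured on the Chromium 5′ platform, with 5 hashtags in each of 2 libraries. The authors aligned and counted the reads with Cell Ranger 7.1.0 on mm10, and the deposited values are raw UMI counts per gene and per hashtag. The submitters' processing notes also name R 4.3.2, Seurat 5.1.0 and DESeq2. The libraries held 2516 and 4987 barcodes. Barcodes with 200 to 5000 genes, at most 5% mitochondrial UMIs and a leading hashtag at least 3 times the second were kept, which also removes doublets of different arms. No doublet caller was run and free RNA was not subtracted.

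UMIs were summed per arm and class where both classes had at least 5 barcodes. Sums were tested with edgeR 4.0.16 in R 4.3.3 (low-count filter, TMM, quasi-likelihood test, Benjamini-Hochberg threshold 0.05) with arm as a block. DESeq2 1.42.0 was an alternative. Only 4 arms held 5 members for the treatment terms, which could not be fitted, so arms with at least 3 members were used, a choice made after seeing the data. Intervals on shares are exact Clopper-Pearson at 95%, floors are 3 UMIs, and both cover counting error only. The arms are single hashtagged samples, so p-values measure the spread between arms.

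On simulated counts with known changes the test against all other barcodes recovered 83% of genes changed by 2 log2 units and 39% of those changed by 1. For the terms anti-MIF, anti-PD-1 and cohort it recovered 71%, 69% and 69% of genes changed by 2 log2 units and 14% of those changed by 1 in each. Of 32285 genes, 32235 were placed on GRCm38 with GENCODE vM21. The members and gene lists were chosen with earlier results of these data known. Named genes were the list genes, the 15 largest changes in each direction that held in every arm, and genes called between arms. Some genes that this rule names are not reported here.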

Additional observations from a re-analysis of the deposited data

How the results depend on the processing

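Against all other kept barcodes 1751 genes were called, and the count lay between 1287 and 2063 when 1 arm was left out. It was 1044 with a hashtag ratio of 5, 1012 in the long cohort alone and 1142 without the fifth hashtag, and on the other side 2253 with no filter on low counts, 2075 with at least 2 UMIs of Xcr1 and Clec9a and 2000 with no upper limit on genes, with 1522 in the short cohort alone. Of the named genes called in that comparison, 14 of 105 lost the threshold in the short cohort alone, 13 of 106 in the long cohort alone, 12 of 106 without the fifth hashtag, 13 of 106 without the arm block and 16 of 97 with a hashtag ratio of 5. Against mature barcodes the count was 1040 (834 to 1092 with 1 arm left out) and 2049 with no filter on low counts. Against Cd209a barcodes it was 16 (0 to 262 with 1 arm left out), 79 with DESeq2, 276 with no filter, 60 and 1 with a hashtag ratio of 2 and 5, 47 with no upper limit on genes, 502 with at least 2 UMIs of Xcr1 and Clec9a, 249 with the rule applied to barcodes thinned to 2000 UMIs and 199 with arms of at least 3 members, an alternative added after seeing the data. The anti-MIF count of 0 became 1 with no filter and 1 with at least 2 UMIs of Xcr1 and Clec9a, and the anti-PD-1 count of 0 became 7 with no filter. The cohort count of 2 (1 to 4 with 1 arm left out) became 19 with DESeq2, 26 with no filter, 0 with a hashtag ratio of 5, 4 with no upper limit on genes and 1 with at least 2 UMIs. Of 164 named gene results, 1 that had passed changed direction, Cxcl9 against Cd209a barcodes (log2 fold change -0.15 with the thinned rule). Of 18 that had not passed, 7 changed sign in at least 1 alternative without passing there, Cd40, Cxcl9, Ddt, Ighm, Pdcd1lg2 and Tlr9 against all others and Irf8 against mature barcodes, so that their direction is not known. Of 3103 alternative values 169 lost the threshold. The causes were not tested. As shares of the 3 dendritic classes, the mean anti-MIF difference was -4.06 ± 16.9 points (SD over 4 pairs, 2 of them positive). An exact permutation of the signs gave p = 0.75. The mean anti-PD-1 difference was 19.8 ± 19.3 points (3 of 4 positive, p = 0.25 in the same permutation). The arms in these pairs held 16 to 95 barcodes of the 3 classes, and 78 of the 95 in the long anti-MIF arm were mature. With 1 pair left out, the shares of kept barcodes gave -0.723 to -0.0818 points with anti-MIF and 0.783 to 1.90 with anti-PD-1. The thinned rule was not run for treatment, since too few arms remained. With few members per arm, depth limits what can be seen of low genes such as Xcr1, Batf3 and Il12b.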
